A study of Mus musculus with 6 samples.

Results

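The Cyp2b and Cyp3a enzymes and Por were examined in the liver of mice labelled Mdr2-/-, 9 genes of the 58601 rows of the expression table. They were chosen by name, as the listed Cyp2b and Cyp3a genes (Cyp2b9, Cyp2b10, Cyp2b13, Cyp3a11, Cyp3a13, Cyp3a25, Cyp3a41a and Cyp3a59) and the P450 reductase Por, and all 9 were found. Mdr2 is another name of Abcb4, whose product carries phospholipid across the canalicular membrane into bile, and its loss damages the bile ducts and liver. The 6 libraries carry the label Mdr2-/- in their titles, 3 with vehicle and 3 with lycorine, an alkaloid of Amaryllidaceae plants. The growth protocol writes Mdr2-HKO instead, and the labels do not explain the difference. In both groups the mice were 8 weeks old and were treated for 2 weeks. Sex, strain and dose are not given in the labels, and wild-type liver is not part of the comparison, so every value is a level in libraries with that label. The labels number the libraries without saying that each came from a separate animal.

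Cytochromes P450 of the Cyp2b and Cyp3a subfamilies sit in the endoplasmic reticulum of hepatocytes, where they oxidise drugs, steroids and bile acids. Each catalytic cycle draws electrons from NADPH through the reductase encoded by Por, with cytochrome b5 as a second donor. Transcription of Cyp2b10 and Cyp3a11 is the classic readout of the nuclear receptors CAR (Nr1i3) and PXR (Nr1i2), which pair with RXR and bind paired half-sites in DNA. Cyp2b9, Cyp2b13 and Cyp3a41a are known for higher levels in female than in male mouse liver.

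All 9 are protein-coding, in GENCODE M21 on GRCm38. The Cyp3a genes and Por lie on chromosome 5, with Cyp3a41a (chr5:145694049-145720136), Cyp3a11 (chr5:145854426-145879964) and Cyp3a25 (chr5:145977194-146009618) on the minus strand and Cyp3a59 (chr5:146079257-146113287) on the plus strand in one cluster, and Cyp3a13 (chr5:137892932-137921619, minus strand) and Por (chr5:135670033-135735326, plus strand) apart from it. The Cyp2b genes are neighbours on the plus strand of chromosome 7, Cyp2b10 at chr7:25897620-25926624, Cyp2b13 at chr7:26061497-26096197 and Cyp2b9 at chr7:26173411-26210661. Some of these paralogs had nearly the same sequence before the start and very different levels. The first pair below is shown because Cyp2b13 was measured in every library while its neighbour Cyp2b9 was near 0. Both are 250 bases upstream of the start in GENCODE and in RefSeq, read 5′ to 3′ on the gene's strand from RefSeq, build GRCm38.p6. Capitals mark the bases that differ. Cyp2b13 covers chr7:26061245-26061494 on the plus strand, and Cyp2b9 covers chr7:26173159-26173408 on the plus strand.
Cyp2b13: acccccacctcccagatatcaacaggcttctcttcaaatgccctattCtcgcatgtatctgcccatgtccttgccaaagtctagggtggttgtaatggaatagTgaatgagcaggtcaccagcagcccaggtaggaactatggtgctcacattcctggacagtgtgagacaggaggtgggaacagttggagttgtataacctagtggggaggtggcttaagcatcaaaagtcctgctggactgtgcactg
Cyp2b9: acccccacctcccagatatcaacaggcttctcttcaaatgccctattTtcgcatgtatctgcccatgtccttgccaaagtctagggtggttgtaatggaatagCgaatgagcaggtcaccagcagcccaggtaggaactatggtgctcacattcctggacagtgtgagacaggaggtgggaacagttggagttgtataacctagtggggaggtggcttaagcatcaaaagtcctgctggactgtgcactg
They differed at 2 of 250 positions (99.2% identity), C48T and T104C, counted from 1 at the 5′ end with the base of Cyp2b13 first. Their coding sequences were less alike, with 92.7% identity.

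The second pair is shown because Cyp3a25 and Cyp3a59 have coding sequences of 97.5% identity, while the level of Cyp3a25 was 6.29 to 26.8 times that of Cyp3a59. The stretches are 249 bases each, Cyp3a25 at chr5:146009619-146009867 on the minus strand and Cyp3a59 at chr5:146079008-146079256 on the plus strand, with differing bases again in capitals.
Cyp3a25: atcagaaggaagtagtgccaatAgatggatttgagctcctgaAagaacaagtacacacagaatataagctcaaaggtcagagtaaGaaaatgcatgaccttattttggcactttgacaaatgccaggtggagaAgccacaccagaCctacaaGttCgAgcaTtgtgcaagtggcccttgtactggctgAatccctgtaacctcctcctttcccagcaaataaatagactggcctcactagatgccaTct
Cyp3a59: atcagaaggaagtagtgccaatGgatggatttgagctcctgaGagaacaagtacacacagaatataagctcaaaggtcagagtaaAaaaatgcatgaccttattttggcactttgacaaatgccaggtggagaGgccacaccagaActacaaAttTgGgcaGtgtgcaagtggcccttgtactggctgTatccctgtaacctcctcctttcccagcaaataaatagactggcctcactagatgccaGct
This pair differed at 11 positions (95.6% identity). The pairs were picked for display after the levels had been seen.

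The stretch before Cyp3a11, the most abundant of the genes, is shown for its half-sites. It covers the 140 bases chr5:145879965-145880104 on the minus strand, upstream of both annotated starts, and capitals mark AGGTCA or AGTTCA on either strand.
Cyp3a11: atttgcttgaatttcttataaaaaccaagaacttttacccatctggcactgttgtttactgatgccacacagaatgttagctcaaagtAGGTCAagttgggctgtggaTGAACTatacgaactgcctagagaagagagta
It held 2 such half-sites, one of each kind. In the stretches printed above, Cyp3a25 and Cyp3a59 each held 2 matches to AGGTCA, and Cyp2b13 and Cyp2b9 each held 1. The corresponding stretch of Cyp2b10 held 0. Among all 32851 RefSeq promoters of 300 bases, longer than the stretches printed, 16.3% held AGGTCA and 14% held AGTTCA on one strand or the other. Of the other genes, Cyp3a13 and Por held 0 of either in those 300 bases, and Cyp3a41a held 1 AGTTCA and 0 AGGTCA. The paired arrangements DR4, DR3 and ER6, which overlap the single half-sites, were found in 0.0274%, 0.0122% and 0.00913% of promoters and in none of the 9 genes' promoters. For Por the RefSeq promoter begins at chr5:135688895, inside the gene as placed by GENCODE. A match describes letters and not a bound site, and distal enhancers were not searched.

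The libraries differed in makeup. Abcb4 itself was detected throughout, with 43.5, 10.8 and 12.2 TPM for vehicle 1 to 3 and 8.96, 8.32 and 32.2 TPM for lycorine 1 to 3, so the label was not borne out by the gene's level, and a gene-level value does not show which part of a transcript remains. Values are in TPM, transcript abundance per length scaled to a fixed sum, and the depth of the libraries is unknown. The share of nuclear protein-coding genes was 51.5% for vehicle 3, against 63.7% to 78.1% elsewhere. The 14 hepatocyte markers, none at 0, summed to 32536 TPM in vehicle 3, to 78246 and 72653 TPM in vehicle 1 and 2, and to between 65032 and 103924 TPM with lycorine, and 13 of 14 had a fold change above 0 on the log2(TPM + 1) scale, lycorine minus vehicle. That number was 8 with a median of 0.12 without vehicle 3, and 8 with median-of-ratios scaling. Kupffer cell markers went the other way, with 11 of 11 tested genes below 0 on that scale, 6 of them with an unadjusted p under 0.05 (3 without vehicle 3), and sums of 239 to 570.3 TPM in vehicle against 159 to 416 TPM. Of all tested rows, 69.9% were above 0 on that scale, and 0.65% were lower with an unadjusted limma p under 0.05. In whole liver, fewer cells of a type and less RNA per cell cannot be told apart.

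Lycorine was then compared with vehicle across all rows that averaged 1 TPM or more, by limma on log2(TPM + 1). A fold change below is on that scale, as lycorine minus vehicle, and comes out too small for genes of low level. Its sign can differ from that of the difference in mean TPM, and each count of genes above or below 0 refers to the fold change. Of 13854 rows tested, 0 passed the adjusted p threshold of 0.05 (0%), and 476 rows (3.44%) had an unadjusted p under 0.05, 2.79% higher and 0.65% lower in lycorine. Leaving out 1 library moved that number between 193 (without lycorine 2) and 1238 (without vehicle 1), and it was 254 without lycorine 1. Of the 9 genes, 6 were expressed highly enough to be tested, and Cyp2b9, Cyp2b10 and Cyp3a41a were not. None of the 6 passed, by limma with Benjamini-Hochberg adjustment, and 0 had an unadjusted p under 0.05. That number was 1, Cyp3a59, with median-of-ratios scaling, quantile scaling, library quality weights or the replicate number as a block. It was also 1, Por, without vehicle 3. Among all rows the numbers in these 5 settings were 312, 295, 1135, 1033 and 602, in that order. The estimates of Cyp3a11, Por and Cyp2b13 were above 0 and those of Cyp3a25, Cyp3a13 and Cyp3a59 below it, with a median of -0.05 beside 0.22 for all rows, of which 69.9% were above 0. Scaling the libraries by median-of-ratios factors moved the median of all rows to -0.01 and that of the 6 genes to -0.33.

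**Figure D1:**
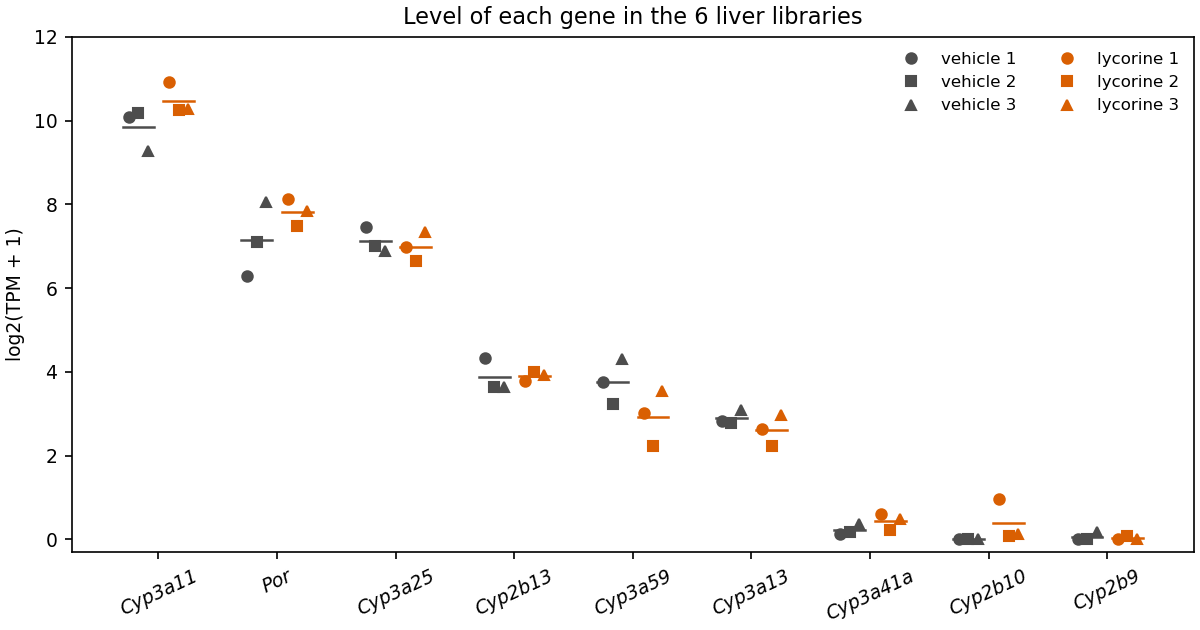
Level of each of the 9 genes in each library, as log2(TPM + 1) on the vertical axis, with vehicle in grey and lycorine in orange, the marker shape giving the library number and the short line the group mean. Cyp3a11 lies highest in every library, and the lycorine points lie above all vehicle points for Cyp3a11 and for Cyp2b10. Cyp2b10 was listed at 0 in vehicle and stayed under 1 TPM with lycorine, where levels cannot be told from 0 with a stated precision. With no filter, groups did not overlap for 7.4% of all rows.

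Cyp3a11, the main Cyp3a enzyme of mouse liver, was measured at 1076, 1154 and 616 TPM in vehicle 1 to 3 and at 1931, 1215 and 1232 TPM in lycorine 1 to 3. Every lycorine library lay above every vehicle library, which was so for 10.6% of all tested rows (9.6% with lycorine above and 1.01% with lycorine below), and vehicle 3 was the lowest. The vehicle mean was 949 ± 291 TPM and the lycorine mean 1459 ± 409 TPM (SD, n = 3). The log2 fold change was 0.64 (SE 0.35, 95% interval -0.18 to 1.46) and did not pass the test (limma, Benjamini-Hochberg adjusted p = 0.832). Without vehicle 3 the log2 fold change was 0.35. In the transcript of Cyp3a11, 0.312% of 100-base windows and 14.8% of 50-base windows also occur in another gene.

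Cyp3a11 was also set against the hepatocyte markers. Per TPM of the 14 markers it amounted to 1.38%, 1.59% and 1.89% in vehicle and 1.86%, 1.37% and 1.89% in lycorine, so the groups overlapped. When each library was divided by its marker sum, a scaling added after the data had been seen, the log2 fold change of Cyp3a11 was 0.07 and the median over all rows was -0.26. That sum leans on its most abundant markers, Trf, Apoa1 and Alb, at vehicle means of 16418, 14329 and 13301 TPM. Their log2 fold changes were 0.89, 0.19 and 0.53, beside a median of 0.39 for the 14 markers. The scaling therefore follows these genes more than the other markers. The part of hepatocyte content in the difference between groups was not tested. Markers of enterocytes, another cell type with Cyp3a enzymes, were also set beside it. Their sum was 64.2 to 267 TPM with vehicle and 590.2 to 1295 TPM with lycorine, most of it Apoa4, which hepatocytes make too. Fabp2, the intestinal fatty acid binding protein, was at 27.4, 20.5 and 10.2 TPM with vehicle and at 38.9, 27.6 and 35.9 TPM with lycorine, all lycorine libraries above. Sis, Alpi and Cdx2 were at 0 in all libraries, and Vil1 and Lct reached at most 1.13 and 0.01 TPM. The part of these markers in the levels of the Cyp3a genes was not tested.

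**Figure D2:**
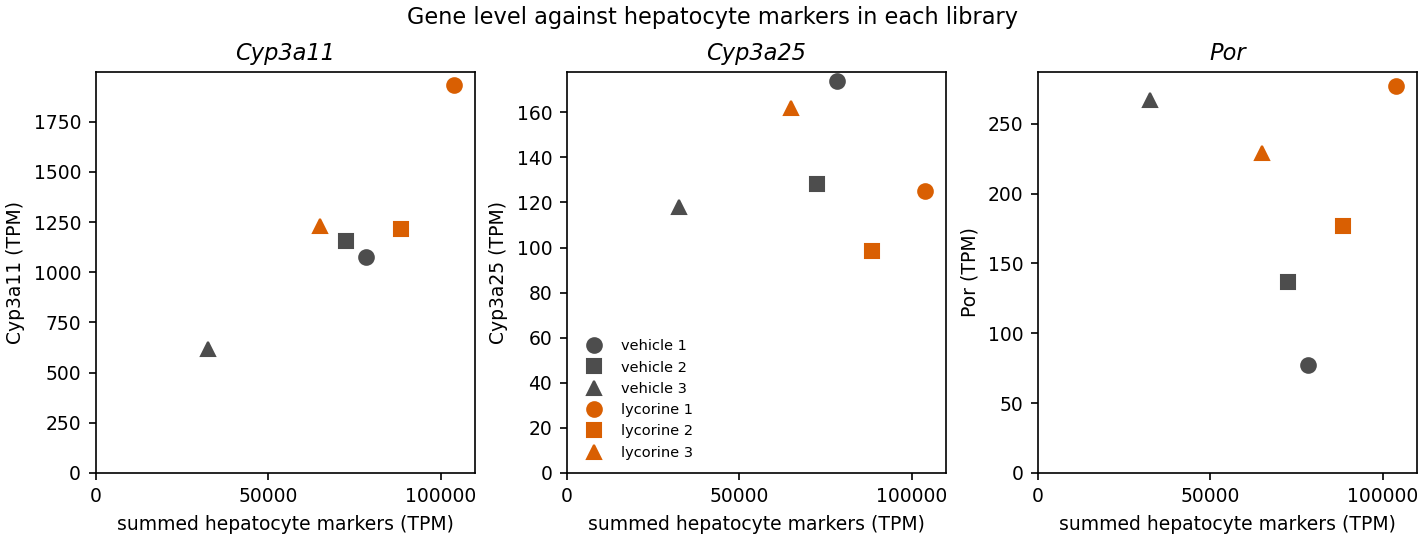
Level of Cyp3a11, Cyp3a25 and Por (vertical axes, TPM) against the summed level of 14 hepatocyte markers (horizontal axes, TPM) in each of the 6 libraries, vehicle in grey and lycorine in orange. Vehicle 3 lies far to the left, with the lowest Cyp3a11 and with Por at 267 TPM, close to the highest value.

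Cyp3a25, a Cyp3a enzyme of adult liver, was measured at 174, 128 and 118 TPM with vehicle and at 125, 98.4 and 162 TPM with lycorine. The groups overlapped throughout, and the log2 fold change was -0.13 (SE 0.31, 95% interval -0.87 to 0.60, limma, Benjamini-Hochberg adjusted p = 0.924). Its close paralog Cyp3a59 was lower in every library, at 12.6, 8.36 and 18.8 TPM with vehicle and 7.12, 3.67 and 10.7 TPM with lycorine. Only lycorine 3 reached into the vehicle range, above vehicle 2. The log2 fold change of Cyp3a59 was -0.84 (SE 0.44, 95% interval -1.86 to 0.19, limma, Benjamini-Hochberg adjusted p = 0.832), the lowest of the 6 estimates. Of the windows of 100 bases in the transcript of Cyp3a59, 5.61% also occur in Cyp3a25, so reads from one can be counted for the other. Of windows of 50 bases, 28% of those of Cyp3a59 and 26.8% of those of Cyp3a25 occur in another gene.

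The balance among the Cyp3a genes was compared as ratios within a library, chosen after the levels had been seen. Cyp3a11 per Cyp3a25 was 6.17, 9.01 and 5.21 with vehicle and 15.5, 12.3 and 7.59 with lycorine. Only vehicle 2 lay inside the lycorine range. Cyp3a11 per Cyp3a59 was 85.7, 138 and 32.8 with vehicle and 271, 331 and 115 with lycorine, again with vehicle 2 inside. Each of these ratios, and Cyp3a25 per Cyp3a59, gave a two-sided exact permutation p of 0.2 (0.267 after Benjamini-Hochberg adjustment over 4 ratios), where 3 against 3 libraries cannot go below 0.1.

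Cyp3a13, found in intestine as well as liver, was low, at 6.10, 5.89 and 7.47 TPM with vehicle and 5.21, 3.65 and 6.85 TPM with lycorine. The groups overlapped through lycorine 3, and the log2 fold change was -0.29 (SE 0.30, limma, Benjamini-Hochberg adjusted p = 0.833). Cyp3a41a stayed under 1 TPM, at 0.09, 0.12 and 0.29 TPM with vehicle and 0.51, 0.16 and 0.39 TPM with lycorine. Its coding sequence is 99.9% identical to that of Cyp3a41b and 90.8% of its 100-base windows occur elsewhere, so its value cannot be assigned to one copy. Cyp3a41b was at 0.25 TPM in vehicle 2 and at 0 elsewhere, Cyp3a44 reached at most 0.21 TPM, Cyp3a57 at most 0.46 TPM, and Cyp3a16 was listed at 0 in all libraries. The 5 Cyp3a genes together came to 1269, 1296 and 761 TPM with vehicle and 2069, 1321 and 1412 TPM with lycorine, a log2 ratio of 0.54, which was -0.02 with hepatocyte marker scaling. Cyp3a11 made up 81% to 89% of that sum in vehicle and 87.2% to 93.3% in lycorine.

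Among the Cyp2b genes, Cyp2b10, the gene most used to read CAR activity, was listed at 0 in all 3 vehicle libraries and at 0.94, 0.05 and 0.10 TPM with lycorine. Most of the lycorine value came from lycorine 1. Since vehicle is at 0 in a table without counts, no fold is given, and the gene was too low to be tested. Cyp2b9 was at 0.13 TPM in vehicle 3, at 0.05 TPM in lycorine 2 and listed at 0 in the other 4 libraries.

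Cyp2b13 held nearly all of the Cyp2b signal. It was measured at 19.1, 11.5 and 11.4 TPM with vehicle and 12.8, 15 and 14.2 TPM with lycorine, with vehicle 1 the highest and all 3 lycorine libraries inside the vehicle range. The log2 fold change was 0.03 (SE 0.30, 95% interval -0.68 to 0.75, limma, Benjamini-Hochberg adjusted p = 0.98), and it was below 0 under every other scaling between libraries that was tried. Of its 100-base windows, 9.29% occur in the pseudogene Gm45225, listed at 0, or in Cyp2b9. Of its 50-base windows, 27.3% occur in another gene. Cyp2b19 and Cyp2b23 were listed at 0 in every library.

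The level of Cyp2b13 can be read beside other sex-biased genes, as sex is not given in the labels. Of the 20 female-biased liver genes listed, which include Cyp2b9, Cyp2b13 and Cyp3a41a, 15 were too low to be tested. All 20 male-biased genes listed were tested, and of all 58601 rows 44747 were not. All libraries held Y-linked Ddx3y (3.1 to 9.41 TPM), and the X-inactivation RNA Xist reached 3.08 TPM for vehicle 3 and 0.71 TPM for vehicle 2. The 20 male-biased genes summed to 18816 to 39156 TPM with vehicle and 19812 to 26907 TPM with lycorine. The 5 female-biased genes tested were Cyp2b13, Cyp4a14 (-0.95 on the log2 scale), Acot3 (0.68), Nipal1 (0.46) and Fmo2 (0.19), and male-biased genes with the smallest p included C6 (0.54), Mup7 (-1.96), Elovl3 (-0.57) and Cyp2d9 (0.51). None of these passed. Of Cyp2b9, Cyp2b13 and Cyp3a41a, only Cyp2b13 was above 1 TPM.

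**Figure D3:**
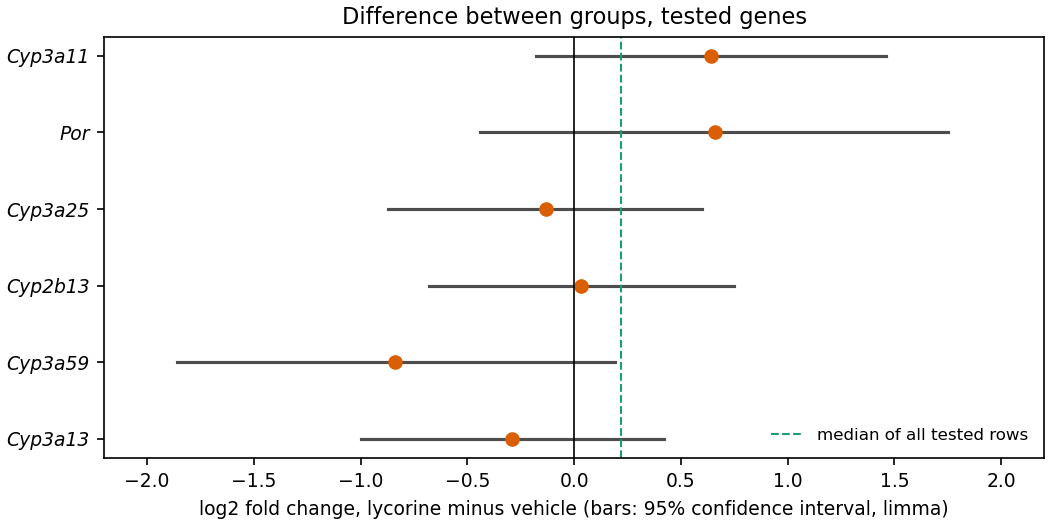
Log2 fold change of the 6 tested genes (points), lycorine minus vehicle, with 95% confidence intervals from limma (bars), and the median of all 13854 tested rows (dashed line, 0.22). All 6 intervals include 0 and 5 of them include the median of all rows.

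Por, the electron donor of all microsomal P450 enzymes, was measured at 77.5, 137 and 267 TPM with vehicle and at 277, 177 and 229 TPM with lycorine. The vehicle libraries spread widely, and vehicle 3 lay inside the lycorine range. The log2 fold change was 0.66 (SE 0.47, 95% interval -0.44 to 1.75, limma, Benjamini-Hochberg adjusted p = 0.832). Single libraries set the size, which was 0.22 without vehicle 1 and 1.11 without vehicle 3. No transcript window of Por is shared. Of the genes overlapping it on the opposite strand, Gm43091 was listed at 0 in all libraries and Gm16061 reached at most 0.85 TPM.

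The P450 enzymes were set against Por. Summed over all P450 genes except Cyp51, TPM per TPM of Por was 104, 64.4 and 20.7 with vehicle and 41.9, 61.8 and 44.7 with lycorine. The groups overlapped fully (two-sided exact permutation p = 0.9). The P450 sum includes mitochondrial enzymes, which do not use Por, such as Cyp27a1 (mean 95.6 TPM with vehicle and 110.1 TPM with lycorine). Of the 8 other electron transfer partners, 7 had a log2 fold change above 0, with a median of 0.48, and 0 passed; with hepatocyte marker scaling 4 were above 0 and the median was -0.04. Fdx1 (ferredoxin, the mitochondrial donor) was at 0.74, Cyb5b at 0.62, Cyb5r3 at 0.56, Pgrmc1 at 0.40 and Cyb5a (cytochrome b5) at 0.83, of which Pgrmc1 turned below 0 with that scaling. P450 enzymes carry heme, and 11 of 12 genes of heme synthesis and breakdown had a log2 fold change above 0, with a median of 0.46, 2 with an unadjusted p under 0.05 and 0 that passed; with hepatocyte marker scaling 4 were above 0 and the median was -0.07. Among them Alad was at 0.86, Blvrb at 0.65, Blvra at 0.49 and Urod at 0.43, and the latter pair turned below 0 with that scaling. Over all rows 69.9% were above 0 as reported. The median of all rows was 0.22 as reported and -0.26 with hepatocyte marker scaling.

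The receptors themselves did not pass the test. Nr1i3 (CAR) was at 89.7, 66 and 197 TPM with vehicle and 72.4, 112 and 190.4 TPM with lycorine, a log2 fold change of 0.13 that turned below 0 under every other scaling (limma, Benjamini-Hochberg adjusted p = 0.953). Nr1i2 (PXR) was at 35, 25.7 and 57.1 TPM with vehicle and 31.4, 27 and 28.3 TPM with lycorine, a log2 fold change of -0.36 (limma, Benjamini-Hochberg adjusted p = 0.833). Both overlapped between groups, and vehicle 3 was the highest for each. Of 13 tested receptors, partners and regulators, 8 had a log2 fold change above 0, with a median of 0.13 that was -0.15 with median-of-ratios scaling. Over all rows 69.9% were above 0. Cebpa, a hepatocyte transcription factor, was at 0.95, Rxra (the partner RXR) at 0.43 (-0.13 with hepatocyte marker scaling) and Foxa2 at 0.49, while Nr0b2 (SHP, a corepressor) was at -0.89, and 0 passed.

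The other known targets of CAR and PXR are the natural comparison. Of 34 tested among 39, 26 had a log2 fold change above 0 and 8 below, with a median of 0.65, and 13 had all lycorine libraries above all vehicle libraries. Over all rows 69.9% were above 0, with a median of 0.22, and 9.6% had all lycorine libraries above. Without vehicle 3, 26 of 34 were above 0, with a median of 0.50 beside 0.19 for all rows. With hepatocyte marker scaling 18 of 33 were above 0, with a median of 0.05 beside -0.26 for all rows. Of these 34, 9 had an unadjusted p under 0.05, all higher (5 without vehicle 3), and 0 passed adjustment. Over all rows 2.79% had an unadjusted limma p under 0.05 and were higher. The difference between these targets and the Cyp2b, Cyp3a and Por genes was not tested. The 5 with the smallest p were Cyp2c genes. Cyp2c29 was at 1.24, 6.24 and 3.65 TPM with vehicle and 61.9, 30.0 and 44.7 TPM with lycorine, a log2 fold change of 3.40 (limma, Benjamini-Hochberg adjusted p = 0.74). Cyp2c39 was at 2.19, Cyp2c38 at 1.99, Cyp2c54 at 1.23 and Cyp2c37 at 1.05 on the log2 scale. Genes of the Cyp2c family can share reads as well. Set against Cyp3a11, Cyp2c29 amounted to 0.115%, 0.541% and 0.592% in vehicle and 3.2%, 2.47% and 3.63% in lycorine. The groups of that ratio, chosen after the values had been seen, did not overlap.

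**Figure D4:**
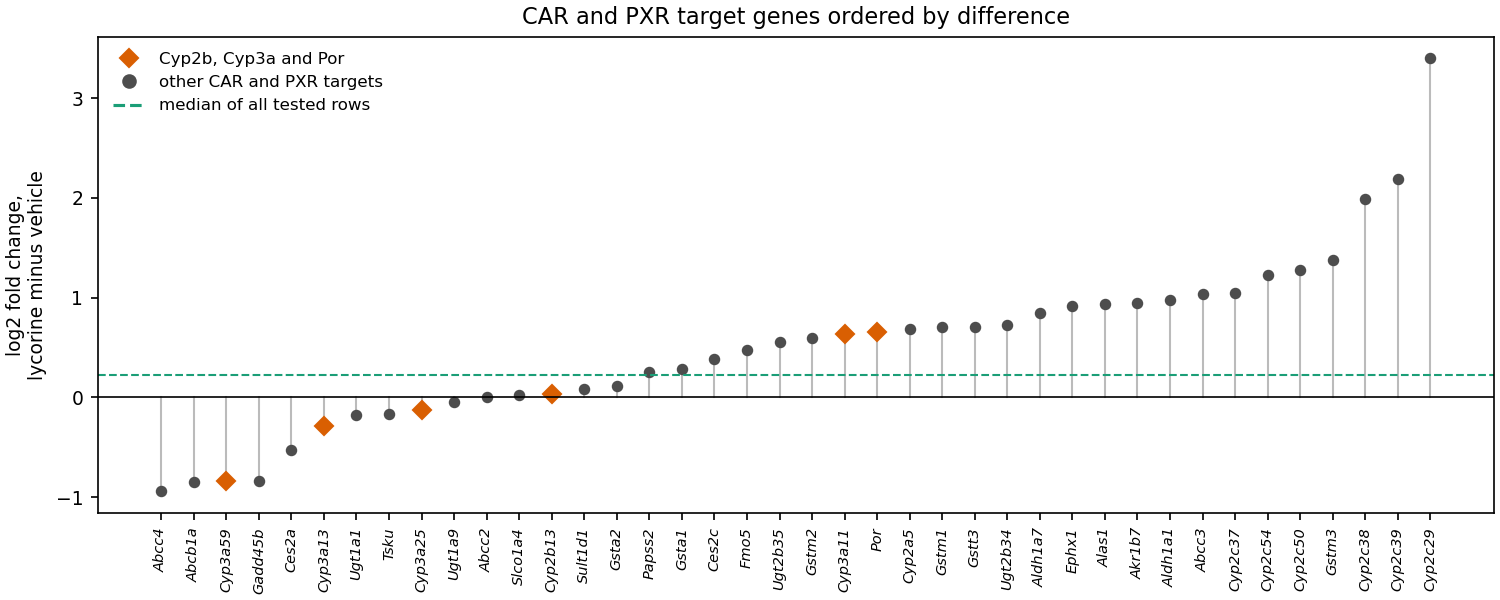
Log2 fold change, lycorine minus vehicle, of the 34 other tested CAR and PXR targets (circles) and of the 6 tested Cyp2b, Cyp3a and Por genes (diamonds), in order, with the median of all tested rows (dashed line). Cyp3a11 (0.64) and Por (0.66) lie near the median of the other targets (0.65), while Cyp3a59 (-0.84) is near the low end and Cyp2c29 (3.40) is the highest.

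The Cyp2b and Cyp3a genes were then taken as a share of all P450 transcripts. All P450 genes except Cyp51 summed to 8085, 8849 and 5518 TPM with vehicle and 11634, 10923 and 10214 TPM with lycorine. The Cyp2b and Cyp3a genes made up 15.9%, 14.8% and 14% of that in vehicle and 17.9%, 12.2% and 14% in lycorine, and the groups overlapped. The Cyp2c genes made up 9.87%, 10.2% and 6.94% in vehicle and 11.9%, 12.1% and 11.8% in lycorine, with all lycorine libraries above. Of 51 tested P450 genes other than the Cyp2b and Cyp3a genes examined, Cyp2c genes included, 42 had a log2 fold change above 0. Their median was 0.51, and after hepatocyte marker scaling 26 were above 0, with a median of 0.05 beside -0.26 for all rows. With the Cyp2c genes also left out, 30 of 39 were above 0, with a median of 0.41. Over all rows 69.9% were above 0. P450 genes listed under other receptors were mixed. Of 7 tested Cyp4a and Cyp4f genes, listed for the fatty acid receptor PPARa, 4 had a log2 fold change above 0 (3 with median-of-ratios scaling). Not all of them are established targets of PPARa, and Cyp4a12a and Cyp4a12b are also among the male-biased genes. Cyp4f14 was at 0.77, Cyp4a12a at 0.66, Cyp4f15 at 0.31 and Cyp4a32 at 0.11. Cyp4a14 was at -0.95, Cyp4a12b at -0.60 and Cyp4a10 at -0.35. The AhR targets Cyp1a2 and Nqo1 were at 0.78 and 0.38, and 0 of these passed.

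Drug-metabolising P450 enzymes are densest around the central vein and are known to fall in inflammation, so zone and acute-phase genes were set beside them. All 14 tested pericentral markers had a log2 fold change above 0, with a median of 0.49. The other listed marker, Lgr5, averaged under 1 TPM and was not tested. Its means were 1.57 TPM with vehicle, most of it from vehicle 3, and 0.373 TPM with lycorine. With hepatocyte marker scaling, where Lgr5 was tested, 9 of 15 were above 0, with a median of 0.04 beside -0.26 for all rows. Of 16 periportal markers 12 were above 0, with a median of 0.17 that was -0.12 with median-of-ratios scaling. Over all rows 69.9% were above 0. Of 12 acute-phase and inflammatory genes 3 were above 0, with a median of -0.09, and without vehicle 3 the number was 6. Orm2 was at 1.63 and Orm1 at 0.43, while Saa3 was at -0.53, Il1b at -0.70 and Ccl2 at -0.60. Saa1 and Saa2 were at -0.14 and -0.08, though their mean TPM was higher in lycorine. None of these genes passed, and their part in the levels of the Cyp2b and Cyp3a genes was not tested.

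The order of the levels was the same at the top in both groups. TPM is per transcript length, so levels of different genes can be set side by side. Cyp3a11 was highest by median (1076 TPM in vehicle, 1232 TPM with lycorine), followed by Por (137 and 229 TPM) and Cyp3a25 (128 and 125 TPM). Por and Cyp3a25 overlapped in vehicle and not in lycorine. Cyp3a59 and Cyp2b13 exchanged places, from 12.6 and 11.5 TPM in vehicle to 7.12 and 14.2 TPM with lycorine, overlapping in vehicle and not in lycorine. Cyp3a13 followed, overlapping Cyp3a59 in lycorine, and Cyp3a41a, Cyp2b10 and Cyp2b9 were under 1 TPM in each library.

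Other genes followed some of these profiles closely. By the root-mean-square difference of centred log2(TPM + 1) profiles over 6 libraries, Hist2h2aa1 (0.08) and Dera (0.08) were among the nearest to Cyp3a11. Dera was at 11.4, 11.8 and 5.81 TPM with vehicle and 20.9, 14.6 and 12.7 TPM with lycorine, low in vehicle 3 and high in lycorine 1 like Cyp3a11. Per1 (0.19), Cyp2c67 (0.25) and Hbb-bs (0.27) were nearest to Por. With 6 points and 6174 and 5158 candidate rows, these are descriptions. The profile of Cyp2b10 is 1 library near 1 TPM and 5 near 0, so nothing is read from the rows nearest to it (Fbxo9, Mavs and Vcp).

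**Figure D5:**
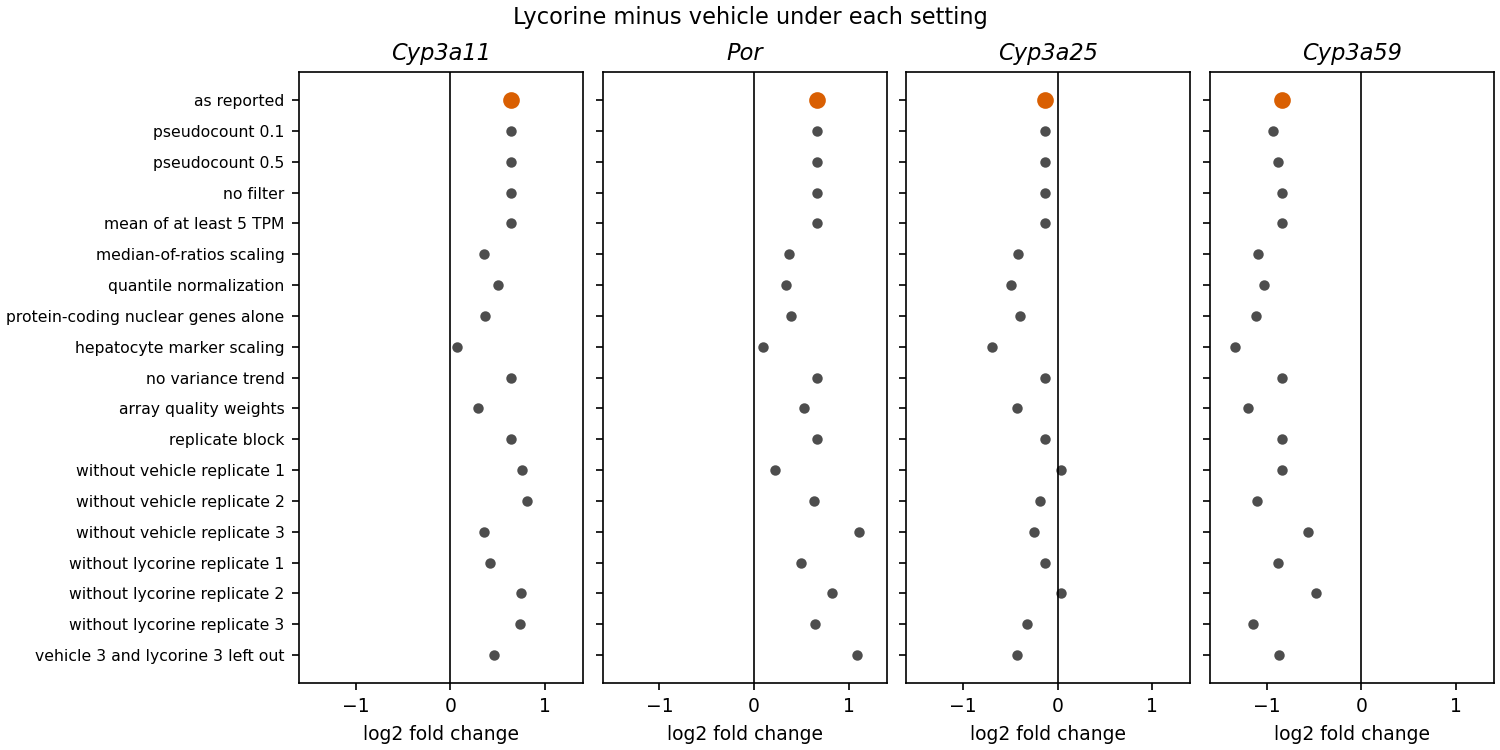
Log2 fold change of Cyp3a11, Por, Cyp3a25 and Cyp3a59 (horizontal axes) as reported (orange) and under each of 18 other settings (grey, one per line). Cyp3a11 and Por stay above 0 and Cyp3a59 below 0, Cyp3a25 crosses 0 without vehicle 1 and without lycorine 2, and Cyp3a11 is smallest (0.07) with hepatocyte marker scaling.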

How the data were processed

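Per the labels' protocols, RNA came from frozen liver (RNeasy Plus Mini Kit) and was sequenced after NEBNext Ultra RNA library preparation. The authors deposited 1 table of values per gene and library, in TPM: it is named for FPKM, but every column adds up to 1000000 apart from rounding. The planned test, written for FPKM, was run on TPM. The submitters' processing notes list GRCm38 and mm10; aligner and quantifier: not given in the sources used here. Vehicle columns carry only genotype and number and were matched because the lycorine columns name the drug. TPM keeps no depth, so no counting interval or count model was used.

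Gene names were taken from GENCODE M21 (GRCm38), where 52135 of 55416 Ensembl identifiers matched. Rows averaging at least 1 TPM were tested with limma 3.58.1 (R 4.3.3) on log2(TPM + 1) with a variance trend, two-sided, adjusted by Benjamini-Hochberg over all 13854 rows, threshold 0.05. The labels do not tie libraries to separate animals, so p-values reflect spread between libraries, which may be technical. The test was checked on simulated data, where it estimated fold changes closely and missed changed rows at every size simulated, nearly all of them at the smallest, so a gene that did not pass may still differ; its acceptance bound was reset after a first bound on recovery failed. Promoter stretches came from RefSeq, build GRCm38.p6, 300 bases a gene, printed only upstream of the annotated starts.

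The genes and lists were chosen with earlier results of these data known. Named genes were all 9 genes, other Cyp2b and Cyp3a genes, both receptors, up to 5 genes with the smallest p in each list and the 3 most alike rows for Cyp2b10, Cyp3a11 and Por, of which 2 genes are not reported here. Alternatives covered pseudocount, filter, scaling, variance model, library weights, a replicate block and left-out libraries.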

Additional observations from a re-analysis of the deposited data

How the results depend on the processing

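None of the 6 tested genes passed under any of 18 alternatives, 17 planned and 1, hepatocyte marker scaling, added after the data were seen. Over these alternatives the log2 fold change ran from 0.07 to 0.81 for Cyp3a11, 0.09 to 1.11 for Por, -1.34 to -0.48 for Cyp3a59, -0.77 to -0.09 for Cyp3a13, -0.69 to 0.04 for Cyp3a25 and -0.49 to 0.27 for Cyp2b13. With 1 library left out, the ranges were 0.35 to 0.81, 0.22 to 1.11, -1.14 to -0.48, -0.47 to -0.09, -0.32 to 0.04 and -0.08 to 0.27 in that order. The unadjusted p of Cyp3a59 fell under 0.05 with quantile normalization, the replicate block, median-of-ratios scaling or array weights, and that of Por without vehicle 3, and none of these passed adjustment. Cyp3a25 turned above 0 without vehicle 1 (0.03) and without lycorine 2 (0.04). Across all rows, array quality weights gave 1 row that passed, the pseudocount 0.1 gave 1, and leaving out 1 library gave 0 to 2 (2 without vehicle 2 and 1 without lycorine 2). Groups did not overlap for 1 gene as reported (10.6% of all rows), for 2 with no filter (7.4%), and for 0 with median-of-ratios scaling (6.8%), protein-coding nuclear genes alone (6.73%) or hepatocyte marker scaling (4.38%). They did not overlap for 1 to 3 genes with 1 library left out (2 without each vehicle library, 3 without lycorine 3), where 14.7% to 33.1% of all rows did not, and for 5 with vehicle 3 and lycorine 3 left out, which leaves 2 against 2 and where 28.9% of all rows did not. The summed Cyp2b and Cyp3a levels, at 0.07 and 0.54, were -0.49 and -0.02 with hepatocyte marker scaling and ran from -0.05 to 0.32 and from 0.29 to 0.67 with 1 library left out. Quantile normalization was not run for these sums. The cause of these shifts was not tested.

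Over all rows the median log2 fold change, 0.22, became -0.01 with median-of-ratios scaling, 0.07 with quantile normalization, 0.03 with protein-coding nuclear genes alone and -0.26 with hepatocyte marker scaling. Estimates that changed sign were, with median-of-ratios scaling, Cyp2b13 (-0.23), Nr1i3 (-0.15), Fmo2 (-0.04) and Hbb-bs (-0.05); with quantile normalization, Cyp2b13 (-0.15), Nr1i3 (-0.18), Cyp4f15 (-0.02) and Hbb-bs (-0.07); with protein-coding nuclear genes alone, Cyp2b13 (-0.22), Nr1i3 (-0.13), Fmo2 (-0.03) and Hbb-bs (-0.03). With hepatocyte marker scaling they were Cyp2b13 (-0.49), Nr1i3 (-0.43), Rxra (-0.13), Pgrmc1 (-0.16), Urod (-0.13), Blvra (-0.02), Cyp4f15 (-0.25), Fmo2 (-0.29), C6 (-0.02), Cyp2d9 (-0.05), Orm1 (-0.14), Fbxo9 (-0.10), Mavs (-0.10), Vcp (-0.14) and Hbb-bs (-0.33). With array quality weights they were Nqo1 (-0.14), Nipal1 (-0.67), Fmo2 (-0.05) and Orm1 (-0.03), and with vehicle 3 and lycorine 3 left out, Cyp2b13 (-0.09) and Nqo1 (-0.07). With 1 library left out, the lowest and highest values of the other genes that turned were -0.22 and 0.58 for Nr1i3, -0.08 and 0.86 for Nqo1, -0.12 and 1.16 for Nipal1, -0.00 and 0.50 for Cyp4f15, -0.06 and 0.40 for Fmo2, -1.45 and 0.04 for Ccl2 and -0.13 and 0.75 for Hbb-bs. Of the 49 other named genes, 32 kept their direction in every alternative and 17 did not.

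With the replicate number as a block, 0 rows and 0 of the 6 genes passed, 1 gene had groups that did not overlap, and 1033 rows had an unadjusted p under 0.05 against 476 without the block. The labels do not say whether libraries of equal number belong together. The deviations of same-numbered libraries correlated at 0.311, 0.0494 and 0.291, and 5 of 6 libraries correlated best with their own number. That is a hint from the data and not from the design. Depth is unknown, so levels under 1 TPM cannot be told from 0 with a stated precision.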
